A study of Homo sapiens with 4 samples.

Results

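Knockdown of PIAS1 in MDA-MB231 cells kept in serum medium was examined by setting 1 array of PIAS1 shRNA cells against 1 array of control shRNA cells. MDA-MB231 is an established human breast cancer cell line of mesenchymal character that lacks estrogen receptor protein. Cells of both arrays were grown for 30 h in DMEM with 10% FBS and carried a lentiviral short hairpin RNA driven by the U6 promoter, either a scrambled control or the hairpin the authors call PIAS1 shRNA2, and both were selected with puromycin. The same cells in SCM, a serum-free medium with EGF, basic FGF and insulin, gave the other 2 of the 4 arrays of the series and are used for comparison. The knockdown was thus read from 1 hairpin in MDA-MB231 alone. Effects of the hairpin on other transcripts cannot be told apart from those of PIAS1. Other differences between the 2 stable lines, control and PIAS1 shRNA, cannot be told apart from them either. The SCM arrays came from the same 2 lines, so agreement between the media is not an independent repeat. All 19070 probe sets (groups of short probes for a transcript) that the platform's table assigns to exactly 1 gene were used, of 22277 on the array, and they represent 11963 genes. With 1 array per condition no difference has a replicate check, so no p-value is given and every value below describes these arrays.

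PIAS1 is an E3 ligase that attaches the small protein SUMO to other proteins. It binds transcription factors, among them the p65 subunit of NF-kappaB, and is known mostly as a repressor that keeps such factors from some of their target promoters. NF-kappaB drives chemokine and adhesion genes from kappaB sites, while MHC class II genes are switched on together by the co-activator CIITA, which is recruited to a conserved group of promoter boxes.

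In serum medium the PIAS1 shRNA cells had less PIAS1 mRNA, higher signals of SPANXB1, of salivary-type cystatins and of IL11, FN1, INHBA, JAG1 and TGFBI, and lower signals of MHC class II genes and of NF-kappaB targets such as CXCL1, CXCL8 and TNFAIP2. Genes of mitosis, the interferon response and ribosomal proteins differed little. Signals are MAS5 intensities on a linear scale, and where a gene has several probe sets, the one brightest on average over the 4 arrays was taken. Signals under 198, the floor set from genes of other tissues, were raised to that value, and a ratio with 1 signal under the floor is a bound given as "at least" or "at most". A gene was called higher or lower at 2-fold or more, and 8795 genes had at least 1 signal above the floor in DMEM. Of these, 126 were at least 2-fold higher with PIAS1 shRNA, or 1.43%, and 67 were at least 2-fold lower, or 0.762%. The median log2 ratio over all of these genes was 0.01. In SCM the called genes were 196 higher (2.14%) and 126 lower (1.37%), of 9165.

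The size of a difference that can arise with no biological change was not measured, as no array was repeated, but several measures of spread within the DMEM pair were at hand. The 18 probe sets for spike-in control RNA had log2 ratios between -0.21 and 0.23. Probe sets of the same gene disagreed more. Over 4615 further probe sets of 3007 genes, the difference from the log2 ratio of the probe set read for the gene had an SD of 0.40 and a robust SD of 0.29. The central 95% of the log2 ratios ran from -0.94 to 1.15 in the 1759 dimmest genes and from -0.42 to 0.42 in the 1759 brightest, and the dimmest group held 72 of the 126 higher genes and 29 of the 67 lower ones. Of 3 control probe sets for 28S ribosomal RNA, 2 were 2.15 and 2.28 times as bright with PIAS1 shRNA, the other was under the floor on both arrays, and their part in the results was not tested. The 2-fold limit was reached far more often by dim genes than by bright ones.

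**Figure D1:**
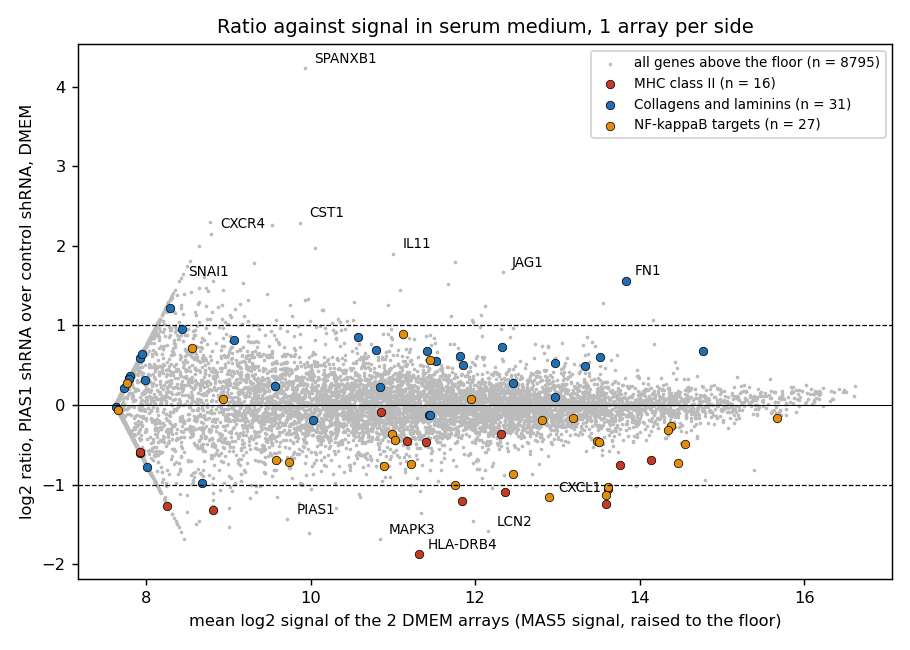
Each point is a gene, with the mean log2 signal of the 2 DMEM arrays on the x axis and the log2 ratio of PIAS1 shRNA over control shRNA on the y axis; dashed lines mark 2-fold. The ratios fan out toward dim signals, 15 of 16 MHC class II genes and 21 of 27 NF-kappaB targets lie below 0, and 25 of 31 collagen and laminin genes lie above 0.

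The labels were borne out by the targeted gene. All 3 PIAS1 probe sets were lower with PIAS1 shRNA in DMEM. The signals were 1383 with control shRNA and 512 with PIAS1 shRNA on the probe set read for the gene, a log2 ratio of -1.43 or 37.0% of control. The other PIAS1 probe sets went from 1527 to 363 and from 684 to 158, where the last signal is under the floor. The other 10 measurable members of the PIAS and SUMO list lay between SENP7, a SUMO protease, at a log2 ratio of -0.35 and PIAS4, a related ligase, at 0.36, so that PIAS1 was the 1 member that differed by 2-fold. The label of the line was checked against its markers. VIM, CD44, AXL, CAV1 and LGALS1 were bright on both DMEM arrays, with VIM at 65060 and 74601, while CDH1, the epithelial cadherin, and PGR, the progesterone receptor, were under the floor on both. FOXA1 and KRT5 were under it too, but the other 4 of the 8 markers listed as low or absent were above it on both: GATA3, a luminal factor, at 6040 and 4765, EPCAM at 547 and 486, ERBB3 at 332 and 289, and ESR1, estrogen receptor alpha, at 216 and 206. SPARC, also listed for this line, was at 82.9 and 247. Of 4 measured leukocyte markers, PTPRC and CD3E were under the floor on both DMEM arrays, CD14 stood at 627 and 355 and CD79A at 144 and 233, and the signals of the 4 summed to 1008 with control shRNA and 657 with PIAS1 shRNA.

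Agreement between probe sets was the closest check of a called gene. Of the 126 higher genes, 30 had a further probe set above the floor. Of these 41 further probe sets, 34 were higher as well, 17 of them by 2-fold or more. Of the 67 lower genes, 14 had 19 further probe sets, of which 16 were lower, 6 of them by 2-fold or more. Over all 4615 further probe sets, 2935 had the same sign as the probe set read for the gene. No further probe set of the called genes went 2-fold the opposite way. The rest of the called genes rest on 1 probe set above the floor.

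**Figure D2:**
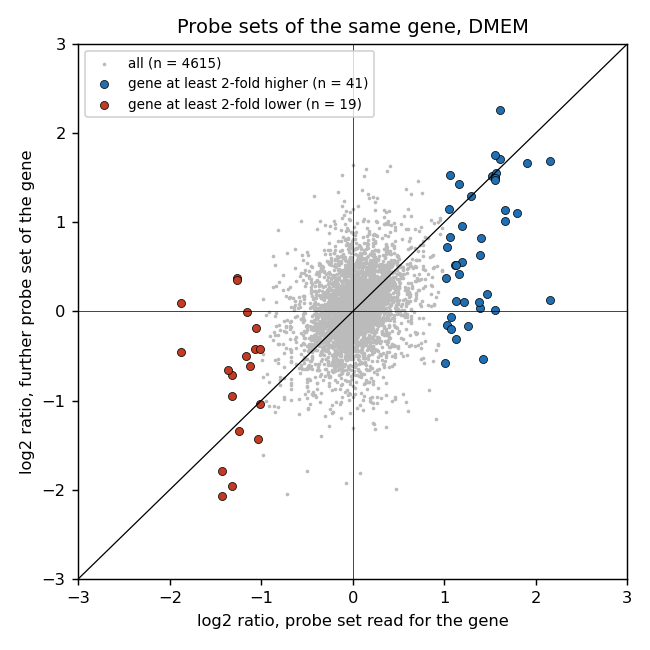
Each point is a further probe set of a gene, with the log2 ratio of the probe set read for the gene on the x axis and its own on the y axis, both in DMEM; the line marks equality. Of the 41 further probe sets of higher genes, 34 lie above 0, and of the 19 of lower genes, 16 lie below 0.

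Promoter sequences of the chemokine and MHC class II genes are shown first, since members of both groups moved together. A known promoter element was searched for in each group. They were taken from RefSeq's GRCh38.p14 and read along the gene's strand from 250 bases before to 50 bases after its start. The kappaB element was searched on both strands as GGNNTTTCC, which is present in 6.26% of 35116 promoters. Of 12 NF-kappaB target genes chosen for the search after their values were seen, 11 have a promoter there and 10 hold a match. NF-kappaB acts on its targets through kappaB sites, so this count is no test against the share of all promoters. Among the 10 is CCL20, which was under the floor on both DMEM arrays. The paralogs CXCL1, CXCL2 and CXCL3 carry 2 matches each, in almost the same setting, and CXCL8 and TNFAIP2 carry 1. Capitals mark the matches.
CXCL1, chr4:73869289-73869374, + strand: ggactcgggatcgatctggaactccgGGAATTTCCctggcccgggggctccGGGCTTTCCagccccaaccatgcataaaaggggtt
CXCL2, chr4:74099214-74099298, - strand: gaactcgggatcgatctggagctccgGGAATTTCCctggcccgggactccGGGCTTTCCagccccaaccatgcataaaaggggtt
CXCL3, chr4:74038708-74038793, - strand: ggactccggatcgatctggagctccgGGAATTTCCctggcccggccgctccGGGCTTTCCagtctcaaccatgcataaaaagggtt
CXCL8, chr4:73740452-73740512, + strand: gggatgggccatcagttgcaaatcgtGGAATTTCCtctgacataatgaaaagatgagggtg
TNFAIP2, chr14:103123338-103123398, + strand: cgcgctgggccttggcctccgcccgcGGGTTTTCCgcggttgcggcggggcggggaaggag
The outer match of CXCL1 starts 78 bases before the gene's start and the inner one 53 bases before it. A match of letters is a description of these promoters and does not show that a factor bound there.

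The Y box of MHC class II promoters was searched on both strands as CTGATTGG, which is present in 3.97% of the same promoters. Of 11 class II genes and regulators chosen after their values were seen, 9 have a promoter there and 3 hold these letters. This count is no test either.
HLA-DRB1, chr6:32589864-32589923, - strand: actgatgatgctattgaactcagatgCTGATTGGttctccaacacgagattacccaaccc
HLA-DQB1, chr6:32666715-32666774, - strand: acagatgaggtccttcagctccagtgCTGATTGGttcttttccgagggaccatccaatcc
HLA-DMA, chr6:32953146-32953205, - strand: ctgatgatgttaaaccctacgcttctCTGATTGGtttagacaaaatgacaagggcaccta
In HLA-DRB1 the match starts 49 bases before the gene's start, in HLA-DQB1 91 and in HLA-DMA 82 bases before it.

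Most MHC class II genes were lower with PIAS1 shRNA in both media. These genes encode the paired alpha and beta chains that present peptides to helper T cells, with the proteins that load them. Of 16 members above the floor in DMEM, 7 were called lower and 0 higher, against 0.762% and 1.43% of all genes, and the median log2 ratio was -0.72 against 0.01. All 7 were chains: 3 of 5 alpha chains and 4 of 5 beta chains were at least 2-fold lower.

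Among the alpha chains, HLA-DRA went from a signal of 18925 with control shRNA to 7993 with PIAS1 shRNA, or 42.2% of control, with its other probe set at 16236 and 6411. HLA-DMA, a chain of the peptide exchanger, went from 7690 to 3595, or 46.7%. HLA-DOA, a chain of its inhibitor, went from 475 to 167 and so to at most 41.6%. HLA-DPA1 went from 17984 to 10703, or 59.5%, short of 2-fold.

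Among the beta chains, HLA-DRB1 went from 18152 to 8743, or 48.2% of control. HLA-DPB1 went from 5570 to 2407, or 43.2%. HLA-DQB1 went from 711 to 285, or 40.1%. HLA-DRB4 had the lowest log2 ratio of the genes with both DMEM signals above the floor, -1.88, from 4877 to 1327. The DRB genes are close copies, so the probe sets of HLA-DRB4 and HLA-DRB1 may read each other's transcripts, and 2 further HLA-DRB4 probe sets near the floor stood at 271 and 74.0 and at 192 and 212.

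The class II genes that are not chains differed less. CD74, the invariant chain, went from 22884 to 14186, or 62.0% of control. CIITA was dim, at 297 with control shRNA and 177 with PIAS1 shRNA, which makes its ratio at most 66.5%. RFX5, a DNA-binding subunit at these promoters, stood at 77.5% and RFXANK at 93.9%. In SCM the class II list had a median log2 ratio of -0.98. There 7 of 15 members were at least 2-fold lower, against 1.37% of all genes in SCM. HLA-DQB1 stood at 24.8%, HLA-DRB1 at 29.7% and CIITA at 33.8% of control in SCM. In contrast, the 19 measurable genes of MHC class I presentation had 0 members at 2-fold in DMEM and a median of -0.11.

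NF-kappaB targets were mostly lower in serum medium. Of 27 members above the floor, 3 were called lower and 0 higher, against 0.762% and 1.43% of all genes. A negative log2 ratio was found in 21 of the 27, and the median was -0.44. The share below 0 compares with 4260 of 8795 over all genes. CXCL1, a neutrophil attractant, went from 11422 to 5113, or 44.8% of control. TNFAIP2 went from 18281 to 8377, or 45.8%, with a further probe set at 1302 and 849. CXCL8, or interleukin 8, went from 17906 to 8753, or 48.9%, with a further probe set at 5823 and 2156. CXCL2 lay just short of 2-fold, from 4895 to 2450, and CXCL3 went from 1093 to 664. These 3 CXCL paralogs are similar in sequence and may share hybridisation.

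Feedback inhibitors of the pathway, such as NFKBIA and TNFAIP3, were lower too, though short of 2-fold. NFKBIA, which holds NF-kappaB in the cytoplasm, went from 29261 to 17639, or 60.3% of control. TNFAIP3, a ubiquitin-editing inhibitor, went from 2469 to 1456, or 59.0%. RELB, a subunit, stood at 59.8% and TRAF1, an adaptor, at 61.9%. ICAM1, an adhesion molecule, stood at 55.0%, with its 2 further probe sets also lower. The 6 members above 0 were 2 subunits and 4 cytokines. The subunits NFKB1 and REL were near even, with log2 ratios of 0.07 and 0.08. Among the cytokines, IL1B went from 1633 to 3021 and IL1A from 293 to 482, log2 ratios of 0.89 and 0.72. LIF had a log2 ratio of 0.57 and LTB, with a control signal under the floor, one of at least 0.27. A separate list of 29 measurable NF-kappaB signalling components had 14 members above 0, 15 below and a median of -0.02. Of those 29, 2 were called higher and 1 lower, against 1.43% and 0.762% of all genes. The 5 inhibitors on that list had 2 members above 0 and 3 below.

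In SCM the same list had the opposite sign. Its median log2 ratio there was 0.51, with 6 of 31 members called higher and 0 lower. Of all genes in SCM, 2.14% were called higher and 1.37% lower. CXCL1 went from 8071 to 27496 in SCM, a log2 ratio of 1.77 against -1.16 in DMEM. TNFAIP2 went from 8786 to 21735, a log2 ratio of 1.31 against -1.13. CXCL2 had a log2 ratio of 2.19 in SCM, where it went from 3903 to 17807, and CXCL3 one of 2.42, from 1400 to 7515. CCL20 and PTGS2, or cyclooxygenase 2, were under the floor on both DMEM arrays and so had no ratio in serum, while their SCM log2 ratios were 2.35 and 2.21. No test of this contrast between media could be made, as each ratio comes from 1 array per side.

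**Figure D3:**
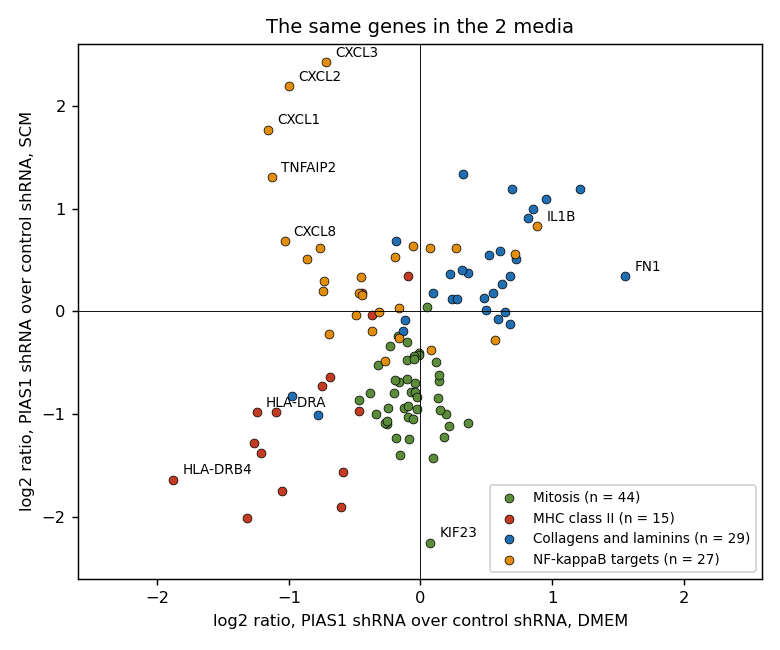
Each point is a gene above the floor in both media, with the log2 ratio of PIAS1 shRNA over control shRNA in DMEM on the x axis and in SCM on the y axis, coloured by list. CXCL1, CXCL2, CXCL3, CXCL8 and TNFAIP2 lie in the upper left, most MHC class II genes in the lower left, and mitosis genes near 0 in DMEM but below 0 in SCM.

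Most matrix genes had positive log2 ratios, though few reached 2-fold. Of 31 collagen, laminin and related matrix genes above the floor, 25 had a positive log2 ratio. Of the 31, 2 were called higher and 0 lower, and the median was 0.50. This compares with 4535 of 8795 positive over all genes, where 1.43% were called higher and 0.762% lower. FN1, fibronectin, had the largest ratio, with a signal of 8481 with control shRNA and 24988 with PIAS1 shRNA, or 2.95-fold. Of its 5 further probe sets, 4 had log2 ratios between 1.48 and 1.76 and the dimmest, with signals of 184 and 199, had 0.01. COL15A1, a basement membrane collagen, went from 206 to 477, or 2.32-fold.

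The other matrix genes differed by less than 2-fold. THBS1, thrombospondin 1, went from 22073 to 35299, or 1.60-fold, and its 4 further probe sets had log2 ratios between 0.35 and 0.93. COL5A1 was 1.65-fold higher, COL7A1 1.62-fold, COL4A1 1.54-fold and LAMC1 1.52-fold. TNC, tenascin C, went from 249 to 483 and FBN1, fibrillin 1, from 1133 to 2046. COL1A2, a chain of type I collagen, was lower at 50.9% of control, and BGN, biglycan, at most 58.2%. In SCM the list median was 0.34, and FN1, already at 43133 in control shRNA cells there, was 1.27-fold higher.

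**Figure D4:**
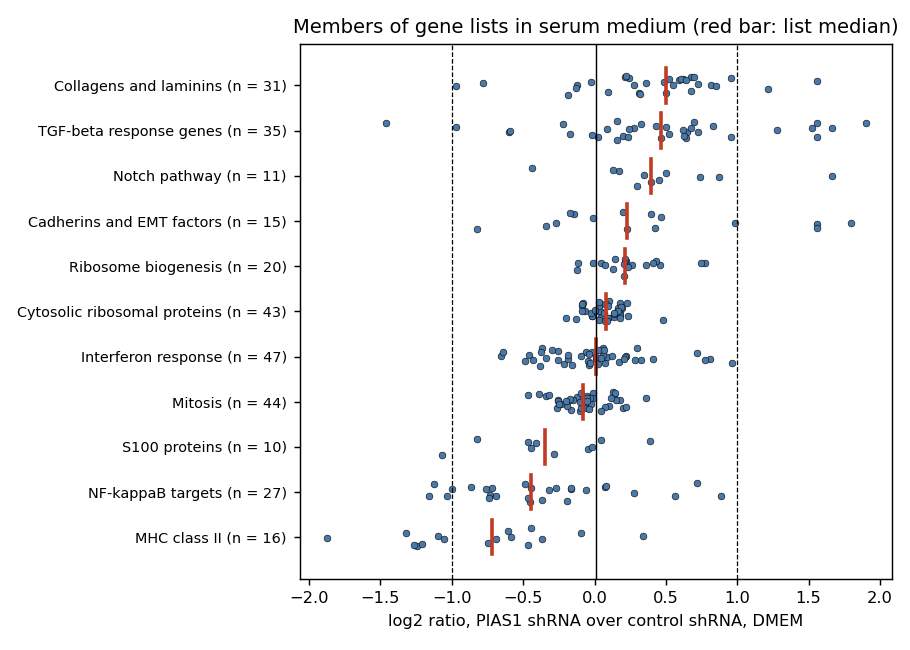
Points are members of each list above the floor in DMEM, with the log2 ratio of PIAS1 shRNA over control shRNA on the x axis; the red bar is the list median, the solid line the median of all genes and dashed lines mark 2-fold. List medians run from -0.72 for MHC class II to 0.50 for collagens and laminins, and mitosis genes lie within a narrow range.

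Genes that respond to TGF-beta, a list chosen after the values were seen and overlapping the matrix list, included several of the highest ratios. TGF-beta signals through SMAD proteins and raises matrix, SNAI1 and its own inhibitors in many cells. Of 35 members above the floor, 28 had a positive log2 ratio, 6 were called higher and 1 lower, with a median of 0.47. Of all genes, 4535 of 8795 had a positive log2 ratio, 1.43% were called higher and 0.762% lower. As this list was chosen after the values were seen, those shares are no test of it. The list of TGF-beta, BMP and ID genes, which holds ligands, receptors, feedback genes and targets, had 11 members above 0, 12 below, 2 called higher, 1 called lower and a median of -0.04. IL11, a cytokine of the IL-6 family, went from 1065 to 3970, or 3.73-fold, and its other probe set from 1447 to 4573. INHBA, the activin A subunit, went from 1926 to 5543, or 2.88-fold, and its other probe set from 329 to 943. TGFBI, a secreted adhesion protein, went from 7736 to 18740, or 2.42-fold.

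SNAI1, a repressor of epithelial genes that is also on that list, went from 171 to 581 and so was at least 2.94-fold higher. Other members differed less or the other way. PMEPA1, an inhibitor of TGF-beta signalling, was 1.78-fold higher and CCN2, connective tissue growth factor, 1.57-fold. SMAD7, an inhibitory SMAD, stood at 1127 and 1143. SMAD6, the inhibitory SMAD of the BMP branch, went from 545 to 192 and so to at most 36.3% of control, and ID1, a BMP target, stood at 66.3%. In SCM the median of these genes was 0.10, and CCN2 had a log2 ratio of -2.17 there.

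Notch genes had a median log2 ratio of 0.40 in DMEM, with 10 of 11 members above 0 and 1 at least 2-fold higher. Over all genes, 4535 of 8795 lay above 0 and 1.43% were called higher. JAG1, a Notch ligand, went from 2906 to 9228, or 3.18-fold, and its 2 further probe sets above the floor had log2 ratios of 1.13 and 1.01. The Notch targets HES1 and HEY1 were 1.67-fold and 1.83-fold higher, the first on another probe set as well, and HEY1 started from a signal of 210, near the floor. The receptors differed little, with NOTCH2 at 1.23-fold and NOTCH1 at a log2 ratio of 0.17.

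Cadherins and factors of epithelial to mesenchymal transition had 3 of 15 members called higher and 0 lower, against 1.43% and 0.762% of all genes. FN1 and SNAI1 were among the 3. The other was CDH11, a mesenchymal cadherin, which went from 1854 to 6438, or 3.47-fold, with its other probe set at 1271 and 2732. The list median was 0.23, with 9 members above 0 and 6 below, where 4535 of 8795 lay above 0 over all genes. The 3 mesenchymal members ran from a log2 ratio of -0.82 to 1.56, and the 6 measurable epithelial members from -0.34 to 0.98.

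Cystatins, inhibitors of cysteine proteases, divided into 2 groups. The salivary-type cystatins were higher: CST1 went from 424 to 2073, or 4.89-fold, CST4 from 1279 to 3044, or 2.38-fold, and CST2 from 889 to 1877, or 2.11-fold. They are close paralogs and their probe sets may read each other's transcripts. CST7, an inhibitor found in cytotoxic and myeloid cells, was lower, from 6650 to 2424, or 36.5% of control. CST6 stood at 55.6% and CST3, cystatin C, at 75.2%. In SCM the same 4 leading genes moved alike, with 4.01-fold for CST1, 2.33-fold for CST4, 1.98-fold for CST2 and 35.4% for CST7.

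**Figure D5:**
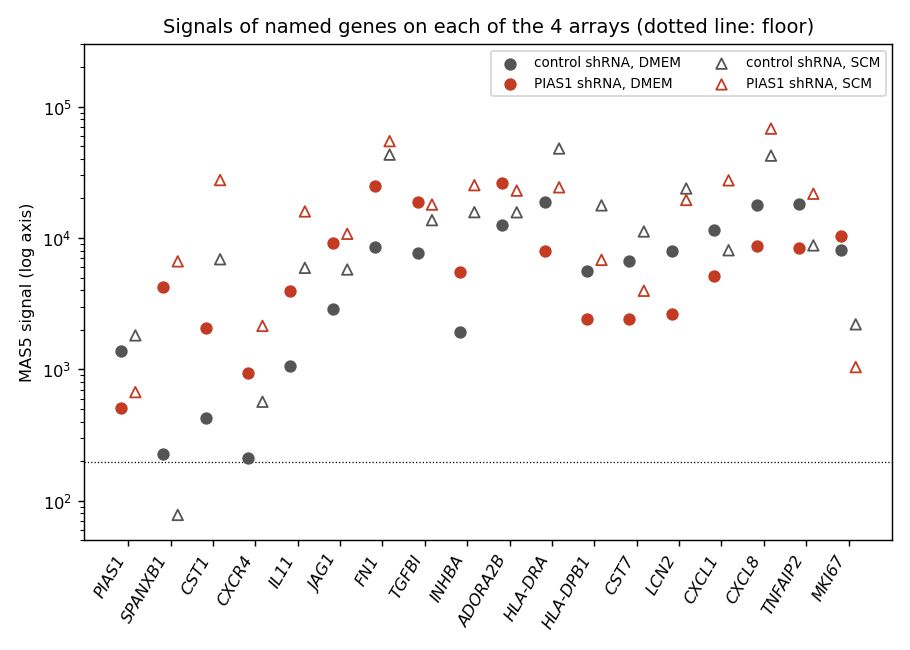
Each column is a gene and each symbol its MAS5 signal on 1 array, on a log axis; filled circles are DMEM, open triangles SCM, grey control shRNA and red PIAS1 shRNA, and the dotted line is the floor of 198. PIAS1 is lower with PIAS1 shRNA in both media, FN1 reaches 24988 with PIAS1 shRNA in DMEM from 8481 with control shRNA, and CXCL1, CXCL8 and TNFAIP2 exchange order between the media.

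Among ratios with both signals above the floor, the highest in DMEM was that of SPANXB1, a gene of the X-linked SPANX family normally expressed in testis. Its signal went from 226 with control shRNA to 4242 with PIAS1 shRNA, or 18.7-fold, and its near-identical family members may contribute to this probe set. LDOC1, a leucine zipper gene of interest to the study, went from 108 to 969, or at least 4.90-fold. Other genes of interest there were CCND2, cyclin D2, from 19.8 to 457, or at least 2.31-fold, and WNT5A, a non-canonical WNT ligand, from 53.7 to 359, or at least 1.82-fold. ESR1 was near the floor on both DMEM arrays, and PAEP was under the floor on both DMEM arrays.

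The remaining genes of the 20 highest ratios were of varied kinds. ANXA10, an annexin of stomach epithelium, went from 338 to 1614. CXCR4, the CXCL12 receptor, went from 210 to 934, or 4.45-fold, with further probe sets at 49.4 and 635 and at 51.6 and 215. TSPAN8, a tetraspanin, went from 537 to 2100, or 3.91-fold, and AGR2, a secretory disulfide isomerase, from 341 to 984, or 2.88-fold. GALNT6, a glycosyltransferase, went from 341 to 1177 and SEL1L3 from 262 to 772 with another probe set at 238 and 702.

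Several of the highest ratios rest on weak evidence. DIP2A went from 200 to 800 on a single probe set of a kind that may cross-hybridise. GAD2 was at least 3.35-fold higher on 1 probe set, while its 2 further probe sets were under the floor on both DMEM arrays. TRBC1, a T cell receptor constant segment with a close copy, was higher on all 3 of its probe sets, from 239 to 730 on the one read, although CD3E was under the floor. HHLA1, ADAMTS1, a matrix protease, and SLC7A2, a cationic amino acid transporter, had control signals under the floor, with ratios of at least 3.51-fold, 3.12-fold and 3.01-fold.

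The 20 lowest ratios included bright genes of secreted and membrane proteins. LCN2, lipocalin 2, an iron-binding defence protein, went from 7898 to 2637, or 33.4% of control, against 81.8% in SCM. RARRES2, or chemerin, went from 4167 to 1625, or 39.0%, against 32.0% in SCM. PDZK1IP1 went from 1766 to 580, or 32.9%. MAPK3, the kinase ERK1, went from 3301 to 1025, or 31.0%, on a single probe set of a kind that may cross-hybridise, against 72.0% in SCM.

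The other lowest ratios came from dimmer genes. NOD1, a sensor of bacterial cell walls, went from 633 to 172 and so to at most 31.2% of control. DBP, a clock-controlled transcription factor, went from 662 to 242, or 36.6%. ACKR3, an atypical receptor for CXCL12, went from 575 to 226, or 39.3%, while CXCR4 was higher. FNDC4 was at most 34.5% and APOC1, an apolipoprotein, went from 510 to 74.0. The remaining genes were GUSBP11, ANKEF1, PAK6, PDE9A, POLR2J4, SLC37A1 and C17orf75, with control signals between 512 for POLR2J4 and 876 for C17orf75, and GUSBP11 and POLR2J4 are pseudogene-type loci with close copies.

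Chemokine receptors and related receptors of migration had 2 of 12 members called higher and 1 called lower, against 1.43% and 0.762% of all genes. Beside CXCR4 and ACKR3, ADORA2B, an adenosine receptor, went from 12614 to 26438, or 2.10-fold, among the brightest genes called. S100 proteins, small calcium sensors, had a median log2 ratio of -0.35, with S100A4 at 57218 and 32403, or 56.6% of control, and S100A6 at 79966 and 82502. Plasminogen activators and serpins had a median of 0.27, with 0 of 11 members at 2-fold and SERPINA1, alpha-1 antitrypsin, at 56.8%.

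Most lists differed little in serum. Leaving aside the genes of other tissues and the genes the study names, 42 of 58 lists had a median log2 ratio within 0.15 of 0. The 44 mitosis genes had a median of -0.08 in DMEM and 0 members at 2-fold. They ranged from -0.47 for KIFC1, a kinesin, to 0.36 for MKI67, the proliferation marker. Their median in SCM was -0.84 with 13 members at least 2-fold lower, against 1.37% of all genes in SCM. In DMEM the 47 interferon response genes had a median of 0.01 and 0 members at 2-fold. The 43 cytosolic ribosomal proteins had a median of 0.08, and the 57 respiratory chain genes -0.06. Ribosome biogenesis factors had 17 of 20 members above 0, a median of 0.21 and 0 at 2-fold. Glycolysis genes leaned the same way, with 16 of 19 above 0 and a median of 0.15. So did ATF4 and amino acid response genes, with 27 of 34 above 0 and a median of 0.12. Over all genes in DMEM, 4535 of 8795 lay above 0, 1.43% were called higher and 0.762% lower.

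Of the 126 genes at least 2-fold higher in DMEM, 30 were also at least 2-fold higher in SCM, which is 23.8% of the DMEM genes and 15.3% of the 196 SCM genes. Of the 67 lower genes, 13 were also at least 2-fold lower in SCM, or 19.4% of the DMEM genes and 10.3% of the 126 SCM genes. A further 2 higher genes and 5 lower genes went 2-fold the opposite way in SCM. Over all 9165 genes above the floor in SCM, 2.14% were called higher and 1.37% lower there. Both SCM signals were under the floor for 11 of the 126 genes and 4 of the 67, so these could not be called in SCM. The median log2 ratio of the 126 genes was 1.21 in DMEM and 0.39 in SCM, and that of the 67 genes was -1.17 and -0.31. These genes were selected by their DMEM ratio, so the medians of the 2 media are not a comparison of sizes.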

How the data were processed

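RNA was measured on 4 Affymetrix human genome arrays of the kind named in the study's methods, 1 per condition, and the DMEM pair is described here. The authors deposited signal intensity values that are not logged, and MAS5 is the tool named in the submitters' processing notes. Its version, its settings and any detection calls were not given in the sources used here. Without the lowest and highest 2% of the values, the mean signal was 2501 on each array, so the arrays share 1 scale, and the ACTB 3' to 5' ratio was 0.982 and 0.946 in DMEM. No counts underlie the values, and their precision is limited by the number of arrays.

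Of 22277 probe sets, 19070 have 1 gene, 1043 have several and 2164 are unnamed here. Entrez identifiers of 19058 matched RefSeq's gene table. A gene's value came from its brightest probe set, by mean log2 signal over the arrays. The floor, 198, came from 66 genes expressed in other tissues, read by 101 probe sets: their 75th percentile was computed per array, and the largest of these values was used. Log2 ratios were taken after raising signals to the floor. A list was described by its median and its members at 2-fold, beside all genes above the floor in at least 1 DMEM array. Lists hold 1257 of 1454 genes measured. The rest are not analysed here.

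The genes named are PIAS1, the 20 highest and 20 lowest log2 ratios among genes with a DMEM signal at least 2 times the floor, up to 8 members of a described list, and the genes the study names. INHBA, TGFBI, CCN2, CFB, SOCS3, the genes of opposite sign between media, further probe sets, the 4 lists of TGF-beta response, clock, ADAM and innate sensor genes, and the promoter motifs were chosen after their values were seen. The members and all lists were chosen with earlier results of these data known. As alternatives, 3 other floors, scaling to a common median, a quantile normalization, a lowess line, 3 other ways to join probe sets and, chosen after seeing the data, genes with both signals above the floor were tried. The steps were tested on simulated data in which only genes well above the floor were changed, so changes of dim genes were not covered. Python 3.11.15, NumPy 2.4.6, pandas 2.3.3, statsmodels 0.14.6 and matplotlib 3.10.9 were used.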

Additional observations from a re-analysis of the deposited data

Results flagged for a closer look

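Ratios of opposite sign in the 2 media were singled out. The median log2 ratio of PIAS1 shRNA over control shRNA for NF-kappaB targets was -0.44 in DMEM and 0.51 in SCM, and that for neutrophil-attracting chemokines and CCL20 was -1.02 over 4 measurable genes in DMEM and 2.11 over 6 in SCM. Of single genes, 7 were at least 2-fold apart from control in both media with opposite signs. The SCM log2 ratio exceeded the DMEM log2 ratio by 2.26 for FGD1, 2.43 for TNFAIP2, 2.93 for CXCL1 and 2.86 for C17orf75, and by at least 2.77 for SLC37A1, whose PIAS1 shRNA signal in DMEM was under the floor. For DYNC2H1 the difference SCM minus DMEM was -2.07. For ASRGL1 it was at most -2.58, as 1 signal in each medium was under the floor. These differences were not tested, with 1 array per condition.

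Of 3 control probe sets for 28S ribosomal RNA, outside the gene measurement, 2 were brighter with PIAS1 shRNA in DMEM. The middle probe set stood at 1150 with control shRNA and 2475 with PIAS1 shRNA, a ratio of 2.15, and the 5' probe set at 291 and 663, a ratio of 2.28. The ratios in SCM were 2.28 and 2.55. The 3' probe set was under the floor on all 4 arrays, with 101 and 101 in DMEM. For 18S ribosomal RNA, the 3' probe set stood at 172 and 225 in DMEM, and the other 2 were under the floor on both DMEM arrays. The part of ribosomal RNA in the gene results was not tested.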

How the results depend on the processing

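The counts of genes depended mainly on how background was treated. With no floor, 1248 genes were called higher and 850 lower in DMEM, against 126 and 67. With the floor at the 95th percentile, 437, they were 41 and 30, and with it at the median signal, 579, they were 32 and 23. With only genes whose signals were both above the floor, 83 were higher. The PIAS1 log2 ratio was -1.87 from the mean of its probe sets and -1.79 from the median of their ratios, against -1.43. With no floor the median was -0.56 for neutrophil-attracting chemokines and CCL20 and -1.05 for MHC class II. The median of the genes the study names turned from 0.86 to -0.26 with the floor at the median signal, which takes dim genes out. Common-median scaling, quantile normalization and a subtracted lowess line moved none of the 39 further named genes or the 60 list medians by more than the robust SD between probe sets, 0.29. The 95th-percentile floor moved 27 of the 39, the floor at the median signal 28, and no floor and the mean of probe sets 10 each. Without probe sets whose names end in _x_at or _s_at, 7 of the 39 moved, among them FN1 to 0.01, read then from its probe set at the floor, and CXCR4 to 0.12. No paired analysis was possible because each condition has 1 array, and for the same reason no replicate could be left out.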

Other observations

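Sensors of innate immunity, chosen after their values were seen, divided in DMEM. Of 14 measurable members, 3 were called higher and 1 lower, against 1.43% and 0.762% of all genes. With the list chosen in this way, the shares are no test of it. CASP1, the inflammasome protease, went from 217 to 568, TLR4, the endotoxin receptor, from 347 to 716, and TLR6 from 195 to 458. NOD1 was lower, and TLR2 and CD14 stood at 57.0% and 56.7% of control. All of these signals are within a few times the floor, apart from TLR2 at 997 with control shRNA.

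Integrins had 0 of 13 members at 2-fold in DMEM, 8 above 0 and 5 below, and a median log2 ratio of 0.12. They ran from ITGB2, from 515 to 288, at a log2 ratio of -0.84 to ITGB3, from 476 to 923, at 0.96. Of 10 measurable clock genes DBP alone was 2-fold lower, while the other 9 lay within 2-fold. Of 13 ADAM and ADAMTS proteases, ADAMTS1 was higher and ADAM28, from 923 to 410, was lower by 2-fold or more. Over all genes in DMEM, 1.43% were called higher and 0.762% lower. The clock and ADAM lists were chosen after their values were seen, so those shares are no test of them. CFB, complement factor B, went from 3738 to 1761, and SOCS3, an inhibitor of cytokine receptors, from 617 to 328.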
